A study of Mus musculus with 6 samples.

Results

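The genes described here are 10 outputs and repressors of the circadian clock, measured by poly(A) RNA-seq in mouse cerebral cortex. They were taken by symbol from the deposited count table: the Period genes Per1, Per2 and Per3, the REV-ERB genes Nr1d1 and Nr1d2, the PAR bZIP genes Dbp, Tef and Hlf, and the repressor genes Bhlhe40 and Ciart. All 10 had a single row each among 33274 gene rows, and all 10 passed the expression filter that left 18327 genes to test. The cortex came from 6 female wild-type mice of the outbred ICR stock, 6 weeks old. In the methylphenidate lineage, 3 mice were grandoffspring of males given methylphenidate, a blocker of dopamine and noradrenaline reuptake, under the skin at 15 mg/kg on 21 days in a row. In the saline lineage, 3 mice were grandoffspring of males given saline at 10 mL/kg in the same way. In both lineages the treated males and then 1 son per litter were mated with untreated females, so no cortex donor was dosed. The labels do not say which cortex donors shared a sire or a litter, and p-values therefore measure the spread between these samples only.

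In the mammalian clock, a heterodimer of CLOCK (or its relative NPAS2) and BMAL1, the product of Arntl, binds E-box elements and switches on the Period, REV-ERB and PAR bZIP genes. PER proteins with CRY proteins then shut that activator down, while REV-ERB proteins repress Arntl itself, so that Arntl RNA peaks when the RNA of Dbp and Nr1d1 is at its trough. DBP, TEF and HLF activate genes through D-box elements, BHLHE40 competes for E-boxes, and CIART (also called CHRONO) represses the CLOCK and BMAL1 pair. Most cells of the cortex run this loop. Per1, Per2 and Bhlhe40 are also known to respond to neuronal activity.

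The elements of the loop can be read in the promoters. RefSeq windows of 300 bases, from 250 bases before to 50 bases after an annotated start in build GRCm38.p6, were at hand for 8 of the 10 genes, with 10 windows in all, and Per2 and Bhlhe40 had none. Elements of 5 kinds were searched on both strands. They were the E-box CACGTG, the weaker E-prime box CACGTT, the D-box TTATGTAA or TTACGTAA, the cyclic AMP response element TGACGTCA, and the REV-ERB and ROR element, AANT followed by AGGTCA or GGGTCA. The E-box and the E-prime box share 5 letters, and no match found here overlapped another. Of all 32851 windows in the table, 7.15% held the E-box, 4.68% the E-prime box, 1.06% the D-box, 1.79% the cyclic AMP response element and 0.435% the REV-ERB and ROR element. Among the 8 genes, Per1, Tef and Ciart held an E-box, Nr1d1 an E-prime box, Per3 a D-box and Hlf a cyclic AMP response element, and the windows of Dbp and Nr1d2 held none of these letters. These are counts of genes, while the shares above are of windows: of the 10 windows, 4 held an E-box, both of those of Tef but only 1 of the 2 of Per1, whose other window held no element. These matches are descriptions of letters in a window and not sites shown to be bound.

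The windows that show the activating and the repressing arm are printed in the direction of transcription, with the matched elements in capitals. Ciart (chr3:95882179-95882478, minus strand) held 3 E-boxes, Per1 (chr11:69098699-69098998, plus strand) 1, Tef at its downstream start (chr15:81811164-81811463, plus strand) 1, and Nr1d1 (chr11:98775328-98775627, minus strand) 1 E-prime box. Per3 (chr4:151044616-151044915, minus strand) held 2 D-boxes, the element that DBP, TEF and HLF bind. Arntl, not one of the 10 genes, held 1 REV-ERB and ROR element in 1 of its 2 windows (chr7:113207261-113207560, plus strand) and no element in the other, through which NR1D1 and NR1D2 are known to repress it.
Ciart: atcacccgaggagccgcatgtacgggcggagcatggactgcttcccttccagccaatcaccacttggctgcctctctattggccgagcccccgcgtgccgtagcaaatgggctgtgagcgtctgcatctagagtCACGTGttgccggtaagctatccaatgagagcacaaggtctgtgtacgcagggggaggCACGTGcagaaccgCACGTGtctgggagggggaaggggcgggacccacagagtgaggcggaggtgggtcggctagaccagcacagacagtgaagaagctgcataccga
Per1: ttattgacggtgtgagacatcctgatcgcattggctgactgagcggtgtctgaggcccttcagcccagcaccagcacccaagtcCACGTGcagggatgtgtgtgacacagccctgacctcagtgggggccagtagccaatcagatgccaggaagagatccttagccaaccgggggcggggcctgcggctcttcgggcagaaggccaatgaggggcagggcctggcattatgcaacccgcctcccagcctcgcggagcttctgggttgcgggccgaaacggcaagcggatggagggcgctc
Tef: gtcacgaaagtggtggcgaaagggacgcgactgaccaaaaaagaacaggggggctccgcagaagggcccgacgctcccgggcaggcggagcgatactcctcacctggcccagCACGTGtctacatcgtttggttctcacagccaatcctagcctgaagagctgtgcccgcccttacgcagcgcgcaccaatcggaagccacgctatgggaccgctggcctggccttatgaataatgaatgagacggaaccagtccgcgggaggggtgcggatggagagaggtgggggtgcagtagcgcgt
Nr1d1: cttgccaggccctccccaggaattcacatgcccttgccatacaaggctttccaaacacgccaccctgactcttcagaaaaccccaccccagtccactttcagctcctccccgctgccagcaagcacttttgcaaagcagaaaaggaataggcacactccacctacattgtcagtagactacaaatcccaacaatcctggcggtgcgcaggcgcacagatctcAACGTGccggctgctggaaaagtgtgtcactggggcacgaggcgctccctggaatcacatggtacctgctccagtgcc
Per3: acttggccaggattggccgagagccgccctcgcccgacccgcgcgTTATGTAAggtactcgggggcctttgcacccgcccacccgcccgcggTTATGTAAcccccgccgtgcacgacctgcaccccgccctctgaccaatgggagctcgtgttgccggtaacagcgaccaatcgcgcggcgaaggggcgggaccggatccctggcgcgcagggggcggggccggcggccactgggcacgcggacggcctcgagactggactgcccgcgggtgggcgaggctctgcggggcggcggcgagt
Arntl: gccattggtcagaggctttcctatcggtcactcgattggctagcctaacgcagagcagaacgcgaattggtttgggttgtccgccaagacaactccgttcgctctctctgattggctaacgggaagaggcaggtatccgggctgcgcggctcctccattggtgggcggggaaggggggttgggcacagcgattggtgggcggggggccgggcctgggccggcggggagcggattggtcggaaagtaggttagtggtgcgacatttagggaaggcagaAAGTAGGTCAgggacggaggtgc

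Total counts lay between 23896752 and 28120640 per library, and mitochondrially encoded genes took 6.44 to 8.19% of them. The tissue carried the cortical marker Slc17a7, the vesicular glutamate transporter of excitatory neurons, at 1021.6 to 1250.6 CPM in the methylphenidate lineage and 1064.5 to 1159.5 CPM in the saline lineage. CPM here were computed from the counts on library sizes scaled by TMM, edgeR's standard factor. Markers of striatal projection neurons, which lie below the cortex, summed to 371.8 to 868.7 CPM in the methylphenidate lineage and 279.4 to 380.3 CPM in the saline lineage. Of the 12 striatal markers, 11 had a log2 fold change above 0 and none passed the edgeR test over all genes, although 10 had an unadjusted p under 0.05 and DESeq2 called 3. Choroid plexus markers summed to 25.4 to 505.5 CPM in the methylphenidate lineage and 45.2 to 661.8 CPM in the saline lineage. Summed astrocyte, oligodendrocyte, microglial and endothelial markers overlapped between the lineages. The 8 hypothalamic markers summed to 7.38 to 25.1 CPM in the methylphenidate lineage and 3.32 to 3.72 CPM in the saline lineage, and 4 of the 8 were at 0 in a library. Of the 25.1 CPM, in methylphenidate replicate 3, Pomc made up 19.4. DESeq2 called 1 hypothalamic marker, Trh, and 1 microglial marker, Aif1, and edgeR and limma-voom called none of either list.

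None of the 10 clock genes differed between the lineages past the threshold, an adjusted p of 0.05 by edgeR's quasi-likelihood test with Benjamini-Hochberg adjustment over all 18327 genes. Of all genes tested, 0.0273% passed, 5 in number. DESeq2 and limma-voom called 0 of the 10 genes as well, and 2 of them, Bhlhe40 and Hlf, had an unadjusted edgeR p under 0.05, which 7.51% of all genes had. The log2 fold changes, methylphenidate over saline lineage, ran from -0.53 for Bhlhe40 to 0.04 for Dbp, with a median of -0.16 beside a median of 0.001 over all genes tested. They lay below 0 for 9 of the 10 genes, as they did for 49.7% of all genes tested. The 9 share their libraries, and in methylphenidate replicate 1 all 10 genes lay below their own means, so the 9 are not separate observations. In bulk tissue, fewer cells of a type and less RNA per cell cannot be told apart.

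**Figure D1:**
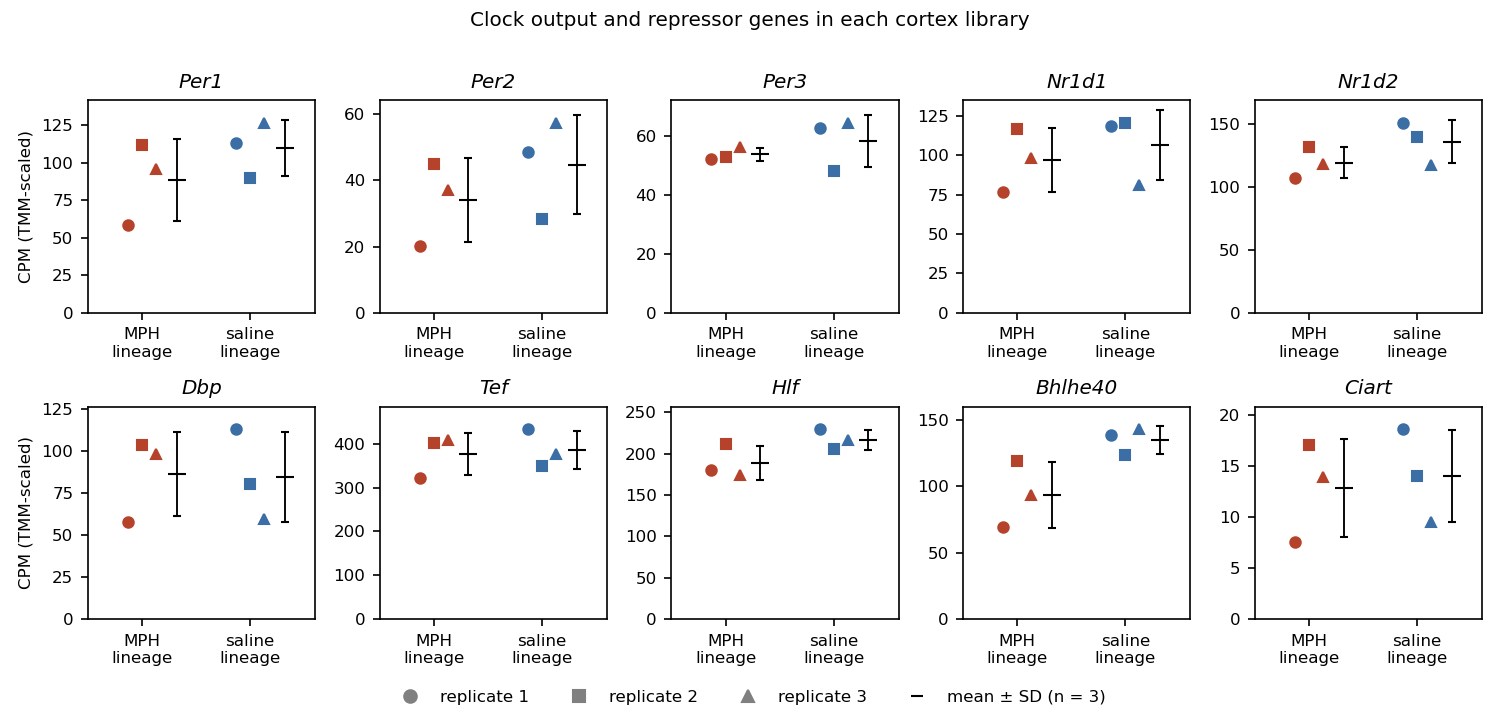
Level of each clock gene (vertical axes, CPM on TMM-scaled library sizes, starting at 0) in the 3 libraries of the methylphenidate lineage (MPH, left) and the 3 of the saline lineage (right), with marker shape for the replicate number and bars for mean ± SD. Replicate 1 of the methylphenidate lineage is the lowest library in 8 panels, and the lineages are apart only in Bhlhe40.

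Among the Period genes, whose proteins form the repressor complex, the spread between animals was wide. Per2 (ENSMUSG00000055866) lay at 20.3, 45.1 and 37.0 CPM in methylphenidate replicates 1 to 3, against 48.7, 28.4 and 57.3 CPM in saline replicates 1 to 3. The 2 lineages overlapped, with the lowest library in the methylphenidate lineage and the highest in the saline lineage. The highest library stood 2.82 times above the lowest, and the log2 fold change was -0.39 (SE 0.30, edgeR adjusted p = 0.821), with a 95% interval from -0.97 to 0.19.

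Per1 (ENSMUSG00000020893) followed the same order at its extremes. It lay at 58.4, 111.6 and 96.0 CPM in methylphenidate replicates 1 to 3, against 113.2, 89.7 and 126.4 CPM in the saline replicates. Methylphenidate replicate 1 was again the lowest and saline replicate 3 the highest, and the lineages overlapped. On the log2 scale the fold change of Per1 was -0.31 (SE 0.21, edgeR adjusted p = 0.792). Without methylphenidate replicate 1 it was -0.08 for Per1 and -0.13 for Per2. Without saline replicate 3 it was -0.19 for Per1 and -0.17 for Per2. Leaving out saline replicate 2 gave -0.63 for Per2, and leaving out methylphenidate replicate 2 gave -0.51 for Per1 and -0.64 for Per2.

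Per3 (ENSMUSG00000028957) varied far less, at 52.2, 53.0 and 56.4 CPM in the methylphenidate replicates and 62.7, 48.2 and 64.4 CPM in the saline replicates. Its lowest library was saline replicate 2, which was also the second lowest for Per2. The log2 fold change of Per3 was -0.12 (SE 0.11, edgeR adjusted p = 0.867), and without single libraries it lay between -0.24 and -0.04. Per3 lies within the span of Camta1 on the same strand in the GENCODE M21 annotation, and Camta1 itself was at -0.26 on the same scale (SE 0.07, edgeR adjusted p = 0.346).

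Genes induced by neuronal activity were measured beside the Period genes, of which Per1 and Per2 are known to share that response. Of 13 such genes, none passed the test by edgeR, DESeq2 or limma-voom, 1 had an unadjusted edgeR p under 0.05, and 9 had a log2 fold change below 0. The member of smallest p was Egr1, an activity-induced transcription factor, with 206.8, 321.7 and 251.3 CPM in the methylphenidate replicates and 429.4, 270.4 and 456.6 CPM in the saline replicates (log2 fold change -0.57, SE 0.20, edgeR adjusted p = 0.569). Egr1, Per1 and Per2 were all lowest in methylphenidate replicate 1 and highest in saline replicate 3. Egr1 was the only one of the 13 genes with both of these extremes. Egr2 was lowest in saline replicate 2, Npas4 in methylphenidate replicate 3 and Btg2 in saline replicate 1. The summed level of the 13 genes was 838.0 to 1229.4 CPM in the methylphenidate lineage and 907.7 to 1498.2 CPM in the saline lineage, with its maximum in saline replicate 3. With each gene weighted alike, the mean log2 deviation was highest in both methylphenidate replicate 2 and saline replicate 3, at 0.29 in each. The part of these genes in the Period values was not tested.

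Nr1d1 and Nr1d2 encode REV-ERB alpha and beta, the nuclear receptors that repress Arntl. Nr1d1 (ENSMUSG00000020889) lay at 76.5, 116.8 and 98.3 CPM in the methylphenidate replicates, against 118.4, 120.5 and 80.9 CPM in the saline replicates. Saline replicate 3, the highest library for all 3 Period genes, was the second lowest for Nr1d1, and saline replicate 2 was the highest. Nr1d1 had a log2 fold change of -0.13 between the lineages (SE 0.17, edgeR adjusted p = 0.906), and leaving out methylphenidate replicate 1 gave 0.01.

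Nr1d2 (ENSMUSG00000021775) lay at 107.3, 132.1 and 118.1 CPM in the methylphenidate replicates and at 150.7, 139.4 and 117.2 CPM in the saline replicates. Its lowest libraries were the same pair as for Nr1d1, methylphenidate replicate 1 and saline replicate 3, and the lineages overlapped. For Nr1d2 the log2 fold change was -0.19 (SE 0.10, edgeR adjusted p = 0.747) and lay between -0.28 and -0.11 without single libraries.

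In GENCODE M21 the last 1075 bases of Nr1d1 lie within the span of Thra, the thyroid hormone receptor alpha gene on the opposite strand. No source used here gives the strandedness used for counting, so the level of Nr1d1 is uncertain to that extent. Thra had 14582 to 19253 counts per library, more than Nr1d1 in each of them, and its fold change, 0.22 on the log2 scale (SE 0.07, edgeR adjusted p = 0.555), was opposite in sign to that of Nr1d1. Shorter overlaps of this kind exist for Dbp with Sphk2, Tef with Gm17597 and Bhlhe40 with 0610040F04Rik, and C920021L13Rik spans Ciart on the other strand. C920021L13Rik had 45 to 90 counts per library, against 183 to 488 for Ciart.

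The PAR bZIP genes encode the D-box activators, and Dbp was the one that varied most. Dbp (ENSMUSG00000059824) lay at 57.9, 103.6 and 98.2 CPM in the methylphenidate replicates, against 113.0, 80.7 and 59.7 CPM in the saline replicates. Each lineage thus held 1 library at about the same low level, methylphenidate replicate 1 and saline replicate 3, and the means of the lineages were 86.6 ± 25.0 CPM for methylphenidate and 84.5 ± 26.8 CPM for saline (SD, n = 3 each). Between the lineages the log2 fold change was 0.04 (SE 0.25, edgeR adjusted p = 0.985), with a 95% interval from -0.44 to 0.52. Its sign depended on single libraries, which gave 0.26 when methylphenidate replicate 1 was left out, -0.12 and -0.06 for methylphenidate replicates 2 and 3, 0.30 for saline replicate 1 and -0.16 for saline replicate 3.

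Tef (ENSMUSG00000022389) lay at 322.6, 403.1 and 408.3 CPM in the methylphenidate replicates and 433.1, 349.4 and 375.9 CPM in the saline replicates. Its lineages overlapped, and the log2 fold change was -0.03 (SE 0.11, edgeR adjusted p = 0.969). The sign was above 0 without methylphenidate replicate 1, at 0.07, and without saline replicate 1, at 0.06.

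Hlf (ENSMUSG00000003949) lay at 180.2, 211.9 and 174.3 CPM in the methylphenidate replicates, against 229.1, 205.1 and 215.8 CPM in the saline replicates. Only methylphenidate replicate 2 reached the range of the saline lineage. The log2 fold change was -0.20 (SE 0.08, edgeR adjusted p = 0.640), and it kept its sign without each library in turn, between -0.29 and -0.15. Hlf did not share the low level of Dbp in saline replicate 3.

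Bhlhe40 (ENSMUSG00000030103), whose protein competes with the clock activators at E-boxes, was the only one of the 10 genes whose lineages did not overlap. Among all genes tested 13.5% had lineages that did not overlap, and 6.51% did so with the methylphenidate lineage lower, so 1 of 10 genes is close to the background. Bhlhe40 lay at 68.9, 118.6 and 93.0 CPM in the methylphenidate replicates, against 138.2, 123.1 and 142.7 CPM in the saline replicates. All 3 methylphenidate libraries lay below the 3 saline libraries, with a narrow gap between replicate 2 of each lineage. Bhlhe40 had the lowest log2 fold change of the 10 genes, -0.53 (SE 0.16, edgeR adjusted p = 0.497), with a 95% interval from -0.84 to -0.21. It was -0.35 without methylphenidate replicate 1 and -0.74 without methylphenidate replicate 2, where the adjusted p reached its smallest value without a single library, 0.152.

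In the same libraries the striatal markers summed to 653.7, 371.8 and 868.7 CPM in the methylphenidate replicates and 380.3, 321.2 and 279.4 CPM in the saline replicates. Methylphenidate replicates 1 and 3, which had the highest striatal sums, had the lowest Bhlhe40 and also the lowest Hlf. For Bhlhe40 the order did not hold in full. The striatal sum was highest in methylphenidate replicate 3, but Bhlhe40 was lowest in methylphenidate replicate 1. Saline replicate 1 exceeded methylphenidate replicate 2 in both the striatal sum and Bhlhe40. No striatal marker had a count of 0 in any library. The part of the striatal share in the Bhlhe40 and Hlf values was not tested. The activity-induced list had its lowest sums in methylphenidate replicates 1 and 3 too, at 904.2 and 838.0 CPM, with saline replicate 2 close at 907.7 CPM. With each gene weighted alike, its mean log2 deviations there were -0.21, -0.28 and -0.23, with saline replicate 2 below methylphenidate replicate 1. The part of this list was not tested either.

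Ciart (ENSMUSG00000038550), the repressor gene whose window holds 3 E-boxes, was the least abundant of the 10 genes by CPM. It lay at 7.59, 17.1 and 13.9 CPM in the methylphenidate replicates, against 18.6, 14.0 and 9.52 CPM in the saline replicates. Its counts were 183 to 485 in the methylphenidate lineage and 230 to 488 in the saline lineage. As for Dbp, the lowest libraries were methylphenidate replicate 1 and saline replicate 3, so that both lineages held a low and a high animal. Its log2 fold change was -0.13 (SE 0.30, edgeR adjusted p = 0.953). It turned to 0.14 when methylphenidate replicate 1 was left out and to 0.13 when saline replicate 1 was, and was -0.39 when methylphenidate replicate 2 was and -0.34 when saline replicate 3 was.

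**Figure D2:**
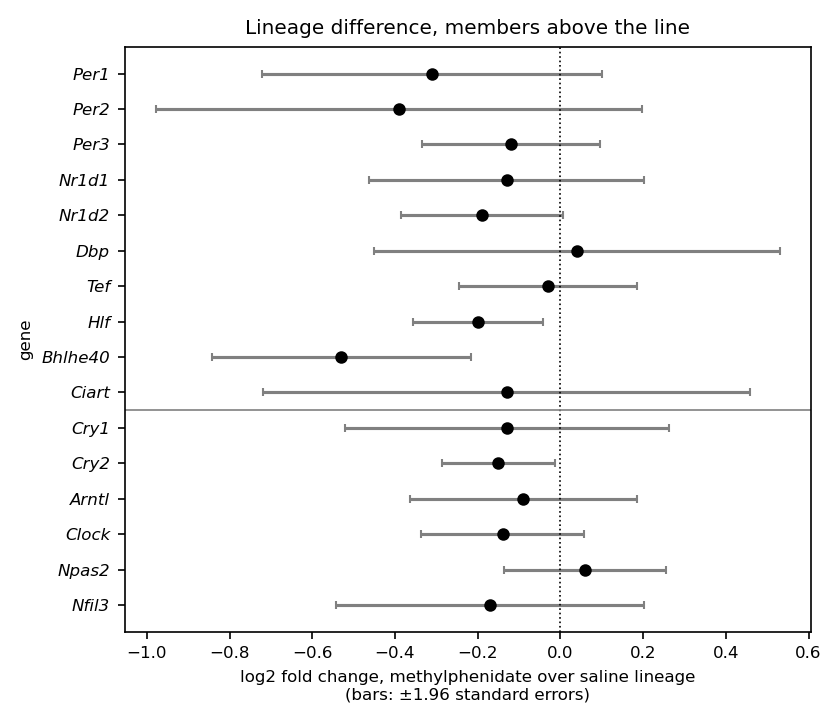
Log2 fold change of each gene, methylphenidate over saline lineage (horizontal axis), for the 10 clock output and repressor genes above the line and 6 other clock genes below it. Points are edgeR estimates from 3 libraries per lineage and bars are 95% intervals from the SE; Bhlhe40 lies furthest from 0, at -0.53, and the intervals of Dbp, Ciart and Per2 are the widest of the 10.

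Per kilobase of merged exons in GENCODE M21, Tef had the highest mean level over the 6 libraries, at 48.6 ± 5.2 CPM per kb (SD). Nr1d1 at 33.1 ± 6.4, Hlf at 30.3 ± 3.19 and Dbp at 28.6 ± 7.76 CPM per kb came next, and these 3 did not differ beyond their spread. Bhlhe40 at 24.2 ± 6.0 and Nr1d2 at 23.6 ± 2.99 CPM per kb followed, within the spread of Dbp. Per1 stood at 17.6 ± 4.25 CPM per kb. Per2 at 6.74 ± 2.33, Ciart at 5.95 ± 1.87 and Per3 at 5.84 ± 0.658 CPM per kb were the lowest, and their order among themselves is within the spread. Merged exons include every annotated isoform, so a level per kb is low for a gene with long rarely used exons.

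All 10 clock genes varied more between animals than the median gene. The SD of log2(CPM + 1) over the 6 libraries was 0.54 for Per2, 0.46 for Ciart, 0.41 for Dbp, 0.40 for Bhlhe40, 0.39 for Per1 and 0.29 for Nr1d1. The median over 10419 genes with a mean of at least 10 CPM was 0.12, and 95.5 to 98.8% of those genes had a smaller SD than these 6 clock genes. Nr1d2, Per3, Tef and Hlf had SDs of 0.15 to 0.18, still larger than those of 71.3 to 81.0% of the genes. For Dbp the highest library stood 1.79 times above the lowest within the methylphenidate lineage and 1.89 times within the saline lineage, and for Ciart these ratios were 2.25 and 1.95. For Bhlhe40 they were 1.72 within the methylphenidate lineage and 1.16 within the saline lineage, and for Per1 1.91 and 1.41.

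Methylphenidate replicate 1 was the lowest of the 6 libraries for 8 of the 10 genes, all but Per3 and Hlf, and lay below the gene's own mean for all 10. It was the lowest library for 15.1% of all genes tested. Its median deviation over the 10 genes was -0.45 on the log2 scale. The highest libraries were saline replicate 1 for 5 genes, saline replicate 3 for 4 and saline replicate 2 for 1. This count by library was made after the values were seen.

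Saline replicate 3 split the genes. Per1, Per2, Per3 and Bhlhe40 were at their highest there, with deviations of 0.39, 0.60, 0.20 and 0.36 on the log2 scale. Dbp, Ciart, Nr1d1 and Nr1d2 lay below their means in the same library, at -0.46, -0.40, -0.31 and -0.11. In saline replicate 2, Nr1d1 at 0.26, Nr1d2 at 0.14 and Ciart at 0.11 lay above their means, and Per2 at -0.39, Per3 at -0.21 and Per1 at -0.10 below them. Bhlhe40 was above its mean in both libraries, at 0.15 in saline replicate 2, and Dbp was below it in both, at -0.04 in saline replicate 2.

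**Figure D3:**
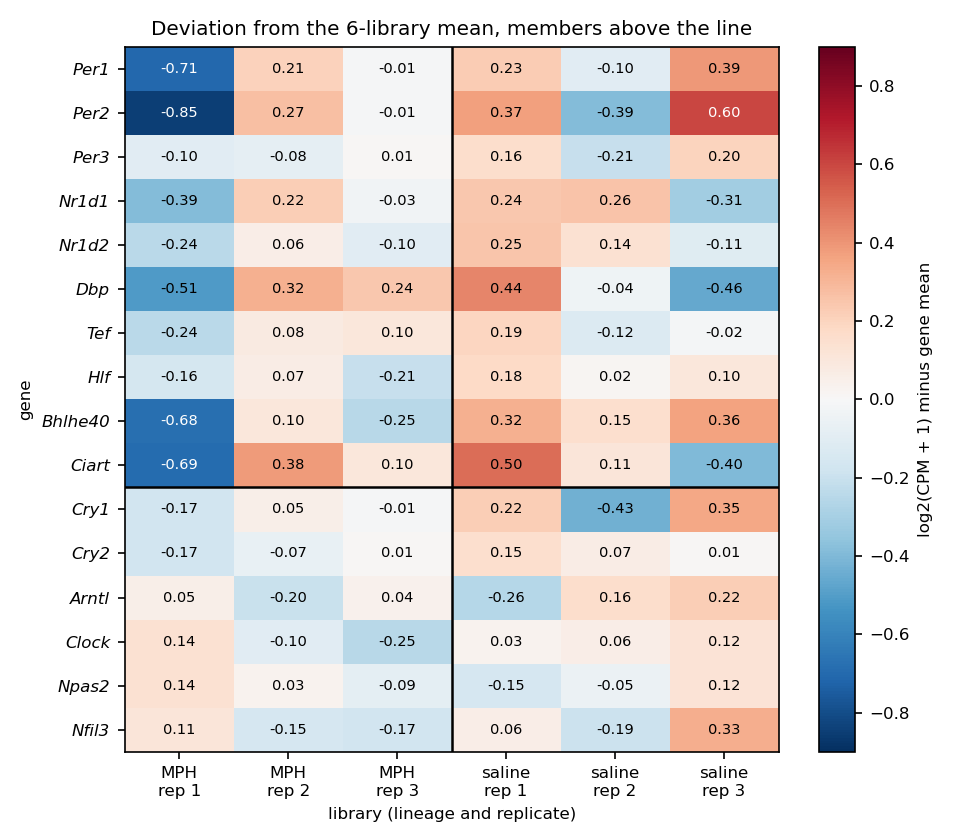
Deviation of log2(CPM + 1) from each gene's mean over the 6 libraries, with the methylphenidate lineage (MPH) in the left 3 columns and the saline lineage in the right 3, the 10 clock output and repressor genes above the line and 6 other clock genes below it. Methylphenidate replicate 1 is below the mean for all 10 genes, and saline replicate 3 is above it for the Period genes and below it for Dbp, Ciart and Nr1d1.

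The ratio of Per2 to Ciart, chosen after the values were seen, shows this split free of library scaling. The log2 ratio was 1.42, 1.40 and 1.41 in methylphenidate replicates 1 to 3, against 1.39, 1.02 and 2.59 in saline replicates 1 to 3. Saline replicate 3 stood apart, and 4 libraries with a more than 2-fold range of both genes had nearly the same ratio. The ratio of Per2 to Nr1d1 was likewise highest in saline replicate 3, at -0.50, and lowest in saline replicate 2, at -2.09, with the methylphenidate lineage between -1.91 and -1.37. The means of the Per2 to Ciart ratio differed between the lineages by -0.25 (exact two-sided permutation p = 1.0, where 3 against 3 libraries allow no p below 0.1).

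Whether genes that are in phase or in antiphase in the clock moved together over the 6 animals was asked in 19 relations, of each gene with Arntl and of each other gene with Dbp. None of the 19 passed Benjamini-Hochberg adjustment over the family at 0.05, by Pearson's r or by Spearman's rho, in exact permutation tests over all 720 pairings. Unadjusted, 3 relations had a p under 0.05 by Pearson's r and 2 by Spearman's rho. All of these were relations with Dbp.

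Ciart had the highest r with Dbp. Pearson's r was 0.96 (exact permutation p = 0.00278, adjusted p = 0.0528) and Spearman's rho was 0.94 (exact permutation p = 0.0167, adjusted p = 0.277). Without methylphenidate replicate 1 and saline replicate 3, the libraries farthest from the median of Dbp, r was 0.81 over the remaining 4. Centred within each lineage, r was 0.98, a description only.

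Tef, a close relative of Dbp, had r = 0.83 with Dbp (exact permutation p = 0.0472, adjusted p = 0.308) and rho = 0.89 (exact permutation p = 0.0333, adjusted p = 0.277). Without the same libraries r was 0.98. Nr1d1 had r = 0.84 with Dbp (exact permutation p = 0.0486, adjusted p = 0.308) and rho = 0.66 (exact permutation p = 0.175, adjusted p = 0.475). Without them its r was -0.11, so this relation rests on methylphenidate replicate 1 and saline replicate 3. Per2 had an r of only 0.38 with Dbp (exact permutation p = 0.463, adjusted p = 0.741) and a rho of 0.43 (exact permutation p = 0.419, adjusted p = 0.724). Saline replicate 3, with the highest Per2 and the second lowest Dbp, stands off the line of the others, and without it and methylphenidate replicate 1 r was 0.98.

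Arntl, which encodes BMAL1 and peaks in antiphase to Dbp, lay at 31.3, 26.2 and 31.0 CPM in the methylphenidate replicates and 25.0, 33.9 and 35.4 CPM in the saline replicates. It was lowest in saline replicate 1 and methylphenidate replicate 2, where Dbp was highest, and highest in saline replicate 3. Arntl against Dbp had r = -0.77 (exact permutation p = 0.0792, adjusted p = 0.376) and rho = -0.83 (exact permutation p = 0.0583, adjusted p = 0.277). Without saline replicate 1 and methylphenidate replicate 2, the libraries farthest from the median of Arntl, r was -0.38. All 10 genes had a negative r with Arntl, but only 1 of the 10 had one without those libraries, so the sign rests on that pair of animals.

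**Figure D4:**
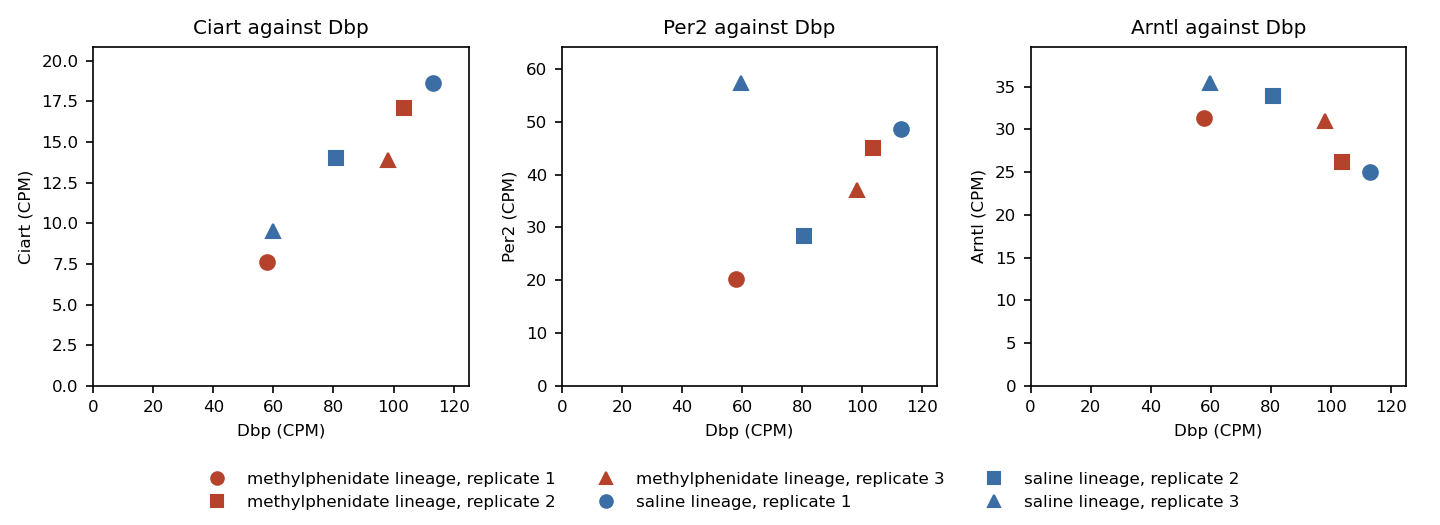
Levels of Ciart, Per2 and Arntl (vertical axes, CPM) against Dbp (horizontal axes, CPM) in the 6 libraries, coloured by lineage with marker shape for the replicate number. Ciart runs with Dbp across both lineages, saline replicate 3 sits apart in the Per2 panel at 57.3 CPM, and Arntl is lowest in the libraries with the highest Dbp.

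The log2 ratio of Dbp to Arntl condenses this into a single value per animal. It was 0.88, 1.99 and 1.66 in methylphenidate replicates 1 to 3, against 2.17, 1.25 and 0.76 in saline replicates 1 to 3. Each lineage spanned most of the range of 1.42, and the means were 1.51 ± 0.57 for methylphenidate and 1.39 ± 0.72 for saline (SD, n = 3 each). The difference of 0.12 was smaller than the spread between animals (exact two-sided permutation p = 0.9). The sources used here give a light-dark cycle for the housing but no hour of collection for any animal, so collection hour and animal cannot be told apart.

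Other parts of the clock were read from lists. Of 8 genes of the activating arm, 7 had a log2 fold change below 0, with a median of -0.16, and none passed the test by edgeR, DESeq2 or limma-voom. One of them, Rorb, a nuclear receptor gene that also marks cortical layer neurons, had an unadjusted p under 0.05. It lay at 50.1, 52.1 and 37.5 CPM in the methylphenidate replicates and 56.9, 61.7 and 62.3 CPM in the saline replicates (log2 fold change -0.37, SE 0.12, edgeR adjusted p = 0.534). In 2 of the 8, Rorb and Arntl2, the lineages did not overlap, against 13.5% of all genes tested. For Arntl2 the log2 fold change was -0.37 (SE 0.19, edgeR adjusted p = 0.714). Clock and Npas2, whose proteins pair with BMAL1, did not pass the test either, with a log2 fold change for Clock of -0.14 (SE 0.10, edgeR adjusted p = 0.798) and for Npas2 of 0.06 (SE 0.10, edgeR adjusted p = 0.939). Their SDs over the 6 libraries were 0.15 and 0.11 on the log2 scale, well below those of Per2 and Dbp.

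Of 12 other core clock genes, 9 had a log2 fold change below 0, with a median of -0.03. None passed by edgeR, DESeq2 or limma-voom, and none had an unadjusted edgeR p under 0.05. Cry1, a repressor that joins the PER proteins, lay at 12.7, 14.9 and 14.3 CPM in the methylphenidate replicates and 16.9, 10.4 and 18.7 CPM in the saline replicates. Like Per3, Cry1 was lowest in saline replicate 2 and highest in saline replicate 3. In 3 of the 12 the lineages did not overlap, against 13.5% of all genes tested. These were Cry2, the relative of Cry1, at -0.15 on the log2 scale (SE 0.07, edgeR adjusted p = 0.667), the casein kinase gene Csnk1e at -0.11 (SE 0.06, edgeR adjusted p = 0.731) and Btrc, a ubiquitin ligase subunit gene, at 0.05 (SE 0.06, edgeR adjusted p = 0.894).

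Of 10 other genes known to be clock-controlled in some tissue, all 10 had a log2 fold change below 0, with a median of -0.21. None passed by edgeR or limma-voom, 2 had an unadjusted edgeR p under 0.05, and DESeq2 called 1, Pdp1. Pdp1, a pyruvate dehydrogenase phosphatase gene, lay at 134.4, 135.4 and 124.0 CPM in the methylphenidate replicates, against 173.7, 148.9 and 177.7 CPM in the saline replicates, and its lineages did not overlap (log2 fold change -0.35, SE 0.08, edgeR adjusted p = 0.265). Klf9, a transcription factor that glucocorticoids also induce, was at -0.25 on the log2 scale (SE 0.09, edgeR adjusted p = 0.563), and its lineages did not overlap either. These were 2 of the 10 genes, beside 13.5% of all genes tested whose lineages did not overlap.

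Signals that can reset or drive these genes were measured beside them. Of 12 glucocorticoid-induced genes, 9 had a log2 fold change below 0, with a median of -0.17. None passed by edgeR, DESeq2 or limma-voom, while 2 had an unadjusted edgeR p under 0.05. Zbtb16 had the smallest p, at 37.6, 39.9 and 35.7 CPM in the methylphenidate replicates and 54.7, 48.8 and 41.2 CPM in the saline replicates (log2 fold change -0.35, SE 0.11, edgeR adjusted p = 0.504). In 2 of the 12, Zbtb16 and Klf9, the lineages did not overlap, against 13.5% of all genes tested. Klf9 and Tsc22d3 are in this list and among the clock-controlled genes above, and Klf9 is 1 of the 2 genes with an unadjusted p under 0.05 in each, so the lists are not separate evidence. The sum of the 12 was 628.4 to 641.4 CPM in the methylphenidate lineage and 620.4 to 760.9 CPM in the saline lineage. In methylphenidate replicate 1, where 8 of the 10 clock genes were lowest, this sum was 632.6 CPM, of which Klf9 made up 244.7, within the range of the other libraries. Of 9 temperature-responsive genes, 5 had a log2 fold change below 0, with a median of -0.10, and none passed by edgeR, DESeq2 or limma-voom or had an unadjusted edgeR p under 0.05. Their sum did not overlap between the lineages, at 1963.6 to 2227.7 CPM in the methylphenidate lineage and 2250.7 to 2353.7 CPM in the saline lineage. Hsp90aa1 and Hspa8 made up most of the sum, and the level of each overlapped between the lineages. With each gene weighted alike, the mean log2 deviations overlapped too. They were -0.08, 0.01 and 0.02 in the methylphenidate replicates and 0.07, 0.01 and -0.03 in the saline replicates. Hsph1, a heat shock protein gene and the one of smallest p, lay at 266.1, 274.4 and 241.6 CPM in the methylphenidate replicates and 297.8, 290.6 and 277.7 CPM in the saline replicates. Its lineages did not overlap, and it was the only one of the 9 of which this held (-0.15 on the log2 scale, SE 0.07, edgeR adjusted p = 0.672). Among all genes tested 13.5% had lineages that did not overlap, so 1 of 9 is close to the background. Cirbp, a cold-inducible RNA-binding protein gene, was at 0.02 on the log2 scale (SE 0.13, edgeR adjusted p = 0.987). The part of these signals in the clock values was not tested.

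The genes whose level followed the mean deviation of the 10 clock genes most closely over the 6 libraries were Zswim4, Apold1, Kcnh4, Gas5 and Irs2, among 2091 variable genes compared. Pearson's r was 0.95 to 0.971, a measure of likeness with no p, since the genes were chosen for it. Gas5, a long noncoding RNA that hosts small nucleolar RNAs, had the widest range, with 11.2, 62.2 and 47.2 CPM in the methylphenidate replicates and 68.3, 36.2 and 63.9 CPM in the saline replicates. Irs2, an adaptor of insulin signalling, lay at 52.9, 70.1 and 63.9 CPM in the methylphenidate replicates and 83.9, 62.5 and 68.9 CPM in the saline replicates. Apold1, an activity-responsive gene of the vascular endothelium, lay at 6.55, 10.5 and 8.58 CPM in the methylphenidate replicates and 12.1, 9.62 and 10.3 CPM in the saline replicates. All 5 were lowest in methylphenidate replicate 1 and highest in saline replicate 1. The genes that ran most against the clock genes were Gtf2h4, Gtpbp10, Tmem254, Acvr1c and Tubd1, with r from -0.977 to -0.918, and all 5 were highest in methylphenidate replicate 1.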

How the data were processed

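Counts per gene were taken as the authors deposited them: whole numbers per Ensembl gene, not normalized, 1 column per library, with symbols in the same table. Tools listed in the submitters' processing notes were HISAT2 2.2.1, StringTie 2.2.1, fastp 0.23.4 and bcl2fastq 2.19, with the build GRCm39 and no roles. For the annotation release, strand setting and route to gene counts, nothing is stated in the sources used here. Libraries were made with poly(A) selection and a directional kit, per the labels.

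The fit used edgeR 4.0.16 in R 4.3.3 (filterByExpr, TMM, glmQLFit, glmQLFTest, group as the only term, two-sided, Benjamini-Hochberg over all genes tested). SE came from the log2 fold change over the root of the F statistic, and 95% intervals are normal intervals from it. A pseudocount of 1 CPM was added before log2 for SDs, deviations and correlations, and none in the log2 ratios of 2 genes. Libraries of the same lineage had a chi-square of 13.0 to 19.9 per degree of freedom when compared in pairs over genes, beyond sampling noise, so none was counted as a duplicate. Alternatives used DESeq2 1.42.0, limma 3.58.1, other scalings and filters, a replicate block and leaving out each library. The fit was tested on simulated counts. The genes and lists were chosen with earlier results of these data known. Named were the 10 genes, Arntl, Clock and Npas2, genes of smallest p in a list (at most 4 of each), genes overlapping the 10, and the 5 genes most and least like them (mean of 5 CPM, SD of 0.2). Slc17a7, Cry1, Cirbp and the ratios other than Dbp to Arntl were chosen after their values were seen. Promoters are RefSeq, build GRCm38.p6; exon lengths and overlaps are GENCODE M21 (GRCm38), and no coordinate was carried between builds.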

Additional observations from a re-analysis of the deposited data

How the results depend on the processing

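None of the 10 clock genes was called under any of the 15 alternatives, and 0 of 19 relations passed under other scalings, a pseudocount of 0.1 or Spearman's rho. Of 150 fold changes under alternatives, 142 kept their sign and stayed short of the threshold, and 8 changed sign, each when 1 library was left out. Without single libraries the log2 fold change ranged from -0.16 to 0.30 for Dbp, from -0.10 to 0.07 for Tef, from -0.39 to 0.14 for Ciart and from -0.30 to 0.01 for Nr1d1. The difference in the log2 ratio of Dbp to Arntl then ranged from -0.20 to 0.51. It kept its sign with Clock in place of Arntl, at 0.18. It was -0.02 with Npas2 in place of Arntl, -0.33 with Per2 in place of Dbp and -0.05 with Nr1d1 in place of Dbp, and the cause was not tested. Over all genes, 5 calls became 10 with total counts and no scaling factor, 3 with no filter, 149 with DESeq2 and 2 to 26 without single libraries (26, 12 and 2 without methylphenidate replicates 1, 2 and 3, and 6, 3 and 8 without saline replicates 1, 2 and 3). The replicate numbers pair nothing in the labels, and same-numbered libraries deviated together with correlations of -0.0651, 0.107 and -0.0193, and methylphenidate replicate 3, not 1, was nearest to saline replicate 1. With the replicate block 2 genes were called, and 0 of the 10 clock genes. With 3 libraries per lineage the SEs of the 10 genes were 0.08 to 0.30.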
